A study of Danio rerio with 24 samples.

Results

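A set of 7 genes for RNA-binding proteins that control the translation, stability or localization of messenger RNA were followed in sorted zebrafish primordial germ cells (PGCs): stau1, stau2, pum2, igf2bp3, lin28a, celf1 and ybx1. They are 7 of the 32520 gene IDs in each deposited table. They were picked by name with the expression values of these libraries already in view, and no threshold is recorded, so their levels and differences are given as a description, without a p-value for any of them. All 7 were found by symbol, and all 7 passed the filter on low values (a mean of at least 1 TPM, a length-scaled share of the transcripts of a library) in each comparison.

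The 20 RNA libraries form 8 groups, and all of them come from embryos that carry a transgene marking PGCs with a fluorescent protein and were kept in Holtfreter's water. Wild-type control PGCs and PGCs with a smad1 knockout restricted to the germ line (smad1-cKO) have 3 libraries each at 75% epiboly, during gastrulation, and 3 each at 1 day post-fertilization (1 dpf). PGCs of embryos injected with a control morpholino (control-MO) or with a smad1 morpholino (smad1-KD, an antisense knockdown that acts in the whole embryo) have 2 libraries each at both stages. The labels name neither the promoter of the transgene nor the way the knockout was restricted, and do not say whether replicates are separate clutches or sorts, so the spread between replicates may be technical. Smad1 passes the BMP signal to the nucleus, and the series asks what its loss changes in PGCs.

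Zebrafish PGCs are set apart by germ plasm, a maternal store of RNA and protein, and for the first hours the embryo lives on maternal messenger RNA that RNA-binding proteins keep silent, stable or in place. Staufen proteins (Stau1, Stau2) bind double-stranded stretches of RNA and take part in its transport, and both are needed for PGC migration and survival in zebrafish. Pumilio proteins such as Pum2 repress their target messages, as Pumilio does with Nanos in the fly germ line. Igf2bp3, related to the frog protein that binds Vg1 RNA, stabilizes maternal messages in zebrafish. Lin28a blocks maturation of let-7 microRNAs, and in mouse Lin28 is needed for PGC formation. Celf1, a Bruno-like protein, binds GU-rich elements, and Ybx1, a Y-box protein with a cold-shock domain, represses translation of maternal nodal-related RNA in zebrafish.

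The labels were checked on smad1 and on marker genes. The smad1 transcript stood at 134 to 140.0 TPM in control and 11.7 to 16.4 TPM in smad1-cKO at 1 dpf, and at 9.68 to 17.9 and 1.11 to 5.09 TPM at 75% epiboly. In the morpholino libraries smad1 stood at 193 to 201 TPM in control-MO and 70.3 to 170.3 TPM in smad1-KD at 1 dpf, and at 9.80 to 9.96 and 2.60 to 4.23 TPM at 75% epiboly. At both stages every smad1-KD library lay under every control-MO library for smad1, and Smad1 protein was not measured in these libraries. Of all genes, 34.7% at 1 dpf and 14.9% at 75% epiboly were likewise lower in smad1-KD without overlap. All 11 germ cell markers were above 0 in every library. Their summed level was 4287 to 33612 TPM in the control and smad1-cKO libraries and 827 to 5228 TPM in the morpholino libraries. At 1 dpf the 9 blood markers, all above 0 there, summed to 7723 to 24774 TPM in control-MO and 39468 to 86112 TPM in smad1-KD, against 1.53 to 144 TPM in control and smad1-cKO. Between 13371 and 18508 gene IDs were above 0 per library at 75% epiboly and between 21330 and 24547 at 1 dpf. The read depth behind a TPM value is unknown. In such bulk libraries, fewer cells of a type and less RNA per cell cannot be told apart. The morpholino libraries and the control and smad1-cKO libraries come from separate deposited tables. Where levels differ between them, morpholino injection, marker content and anything else that differs between tables cannot be told apart. The orders of group means below are a description under this limit.

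**Figure D1:**
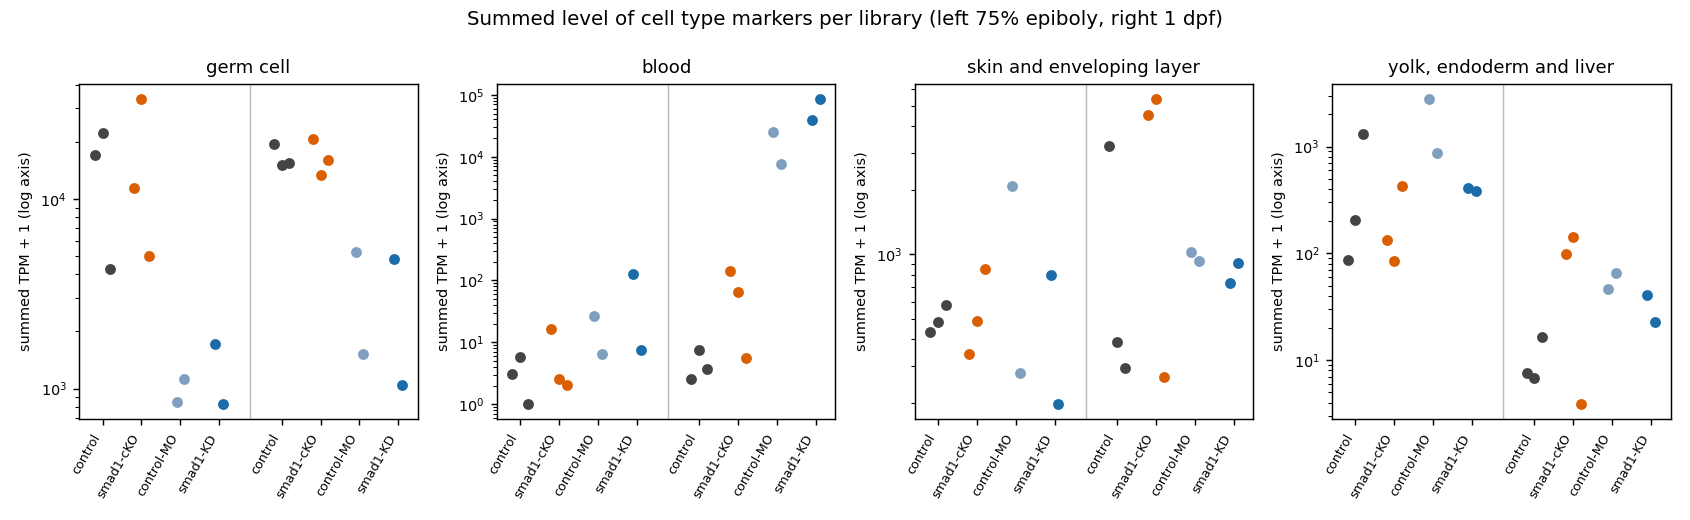
Summed TPM plus 1 (log axis) of 4 marker lists in each library; each point is a library, with 75% epiboly left of the line and 1 dpf right of it. The 4 morpholino libraries at 1 dpf hold blood markers at 7723 TPM or more, above all other libraries.

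The Staufen genes, whose products carry and anchor RNA, were present in every library. At 75% epiboly stau1 measured 35.0, 54.4 and 20.9 TPM in the 3 control libraries and 33.4, 14.7 and 37.1 TPM in smad1-cKO. It measured 27.2 and 29.3 TPM in control-MO and 19.1 and 30.5 TPM in smad1-KD at that stage. The 4 groups overlapped. At 1 dpf stau1 measured 47.9, 43.0 and 41.4 TPM in control, 34.9, 48.5 and 50.3 TPM in smad1-cKO, 106 and 131 TPM in control-MO, and 113 and 47.4 TPM in smad1-KD. Both control-MO libraries and the first smad1-KD library were high, while the second smad1-KD library lay inside the range of smad1-cKO. Ordered by group mean, control-MO at 1 dpf was highest (119 ± 18.2 TPM, SD, n = 2) and smad1-KD at 75% epiboly lowest (24.8 ± 8.03 TPM, SD, n = 2), and each of the 7 pairs of neighbours in that order overlapped.

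The paralog stau2 varied more, from 7.88 to 123 TPM over the 20 libraries, a 15.6-fold range and the widest of the 7 genes. At 75% epiboly it measured 46.7, 65.0 and 26.1 TPM in control, 55.8, 27.3 and 29.4 TPM in smad1-cKO, 27.6 and 25.1 TPM in control-MO, and 34.8 and 7.88 TPM in smad1-KD. These groups overlapped, with the second smad1-KD library the lowest of all 20. At 1 dpf it measured 77.3, 110.1 and 85.1 TPM in control, 84.8, 123 and 87.1 TPM in smad1-cKO, and 110.2 and 104 TPM in control-MO, but 15.4 and 13.3 TPM in smad1-KD. The smad1-KD libraries thus lay far under the other 8 libraries of that stage. In the order of group means the 3 other groups at 1 dpf came first and overlapped one another, a gap separated them from the 75% epiboly groups, and smad1-KD at 1 dpf came last (14.4 ± 1.5 TPM, SD, n = 2).

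**Figure D2:**
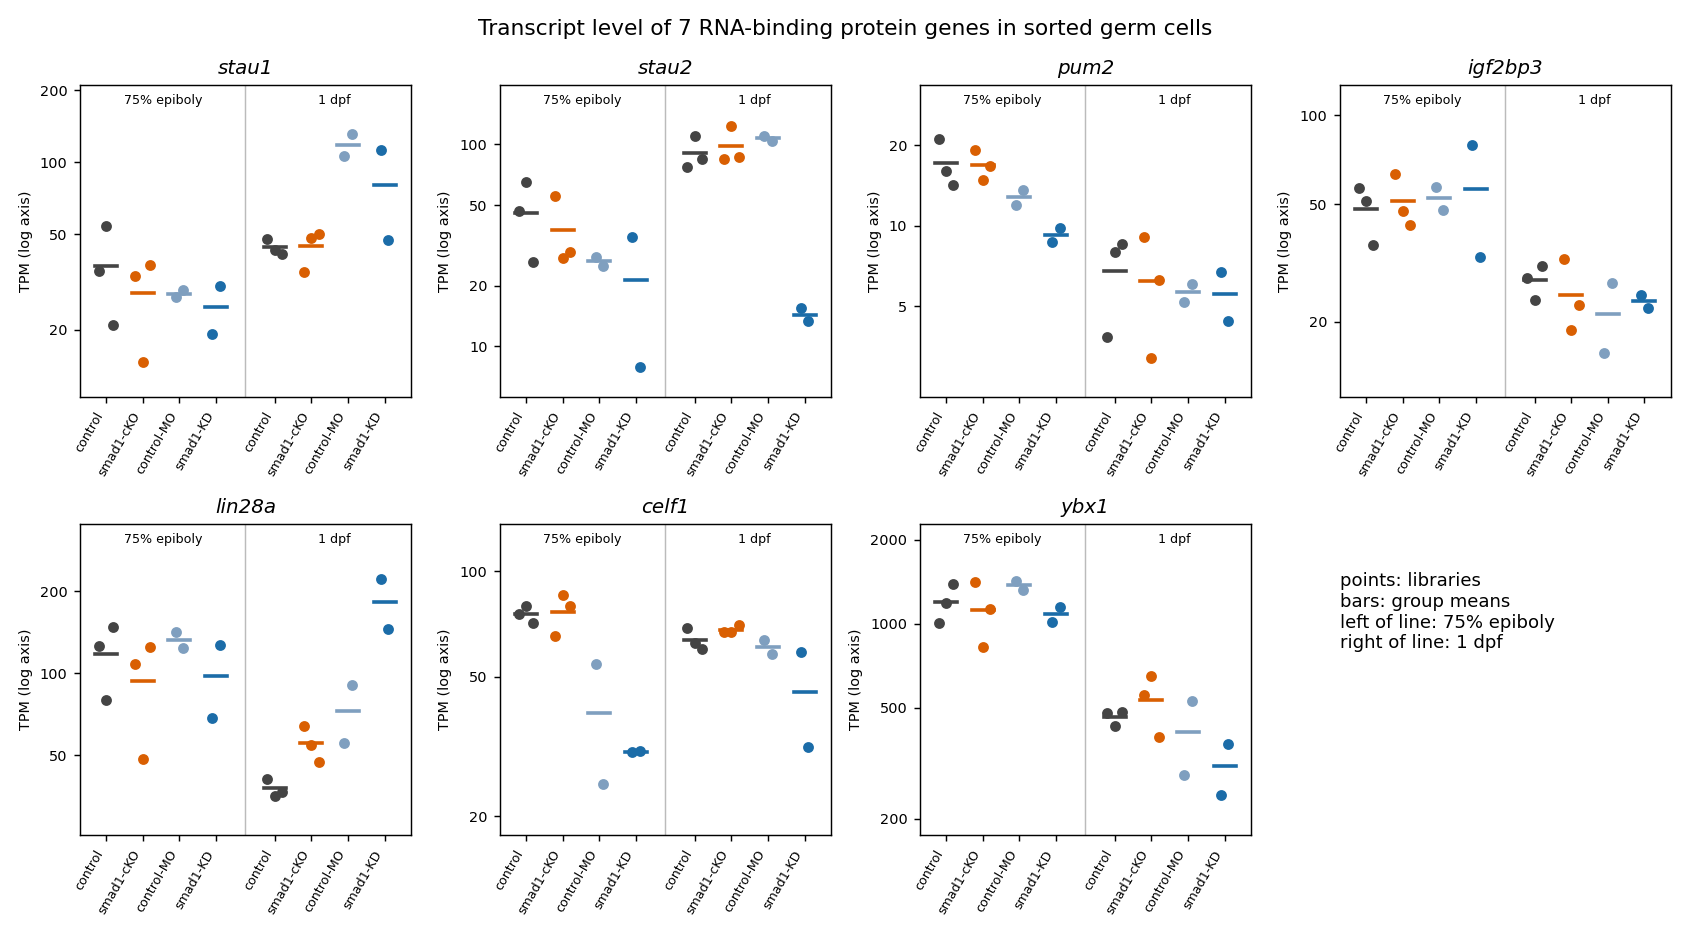
TPM (log axis) of the 7 genes in each of the 20 libraries; points are libraries and horizontal bars group means, with 75% epiboly left of the line and 1 dpf right of it. At 1 dpf stau2 stands at 13.3 to 15.4 TPM in smad1-KD against 77.3 to 123 TPM in the other 3 groups, and ybx1 is the most abundant of the 7 genes in every library.

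Since TPM is scaled per transcript length, the 2 paralogs can be set side by side as shares. The share of stau2 in the summed Staufen level was 57.2%, 54.4% and 55.5% in control and 62.5%, 65.0% and 44.2% in smad1-cKO at 75% epiboly. At 1 dpf it was 61.7%, 71.9% and 67.3% in control, 70.8%, 71.8% and 63.4% in smad1-cKO, and 51.0% and 44.2% in control-MO. In smad1-KD at 1 dpf it was 12.0% and 21.9%, lower than in the other 8 libraries of the stage. In smad1-KD at 75% epiboly the 2 libraries stood apart, at 64.5% and 20.5%.

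The repressor pum2 was the least abundant of the 7 genes by its median over the 20 libraries (8.91 TPM). The 75% epiboly levels were 21.0, 16.0 and 14.2 TPM in control, 19.1, 14.8 and 16.7 TPM in smad1-cKO, 11.9 and 13.6 TPM in control-MO, and 8.72 and 9.77 TPM in smad1-KD. Control and smad1-cKO overlapped, and the 2 morpholino groups lay under them and apart from each other. Its 1 dpf levels were 3.84, 7.94 and 8.57 TPM in control, 9.10, 3.20 and 6.23 TPM in smad1-cKO, 5.18 and 6.06 TPM in control-MO, and 6.72 and 4.39 TPM in smad1-KD, with all 4 groups overlapping.

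The message-stabilizing gene igf2bp3 separated the stages and not the smad1 groups. Its 75% epiboly levels were 56.9, 51.4 and 36.4 TPM in control, 63.5, 47.5 and 42.4 TPM in smad1-cKO, 57.2 and 47.7 TPM in control-MO, and 79.1 and 33.2 TPM in smad1-KD. By 1 dpf the levels were 28.1, 23.8 and 31.0 TPM in control, 32.7, 18.7 and 22.9 TPM in smad1-cKO, 15.6 and 27.0 TPM in control-MO, and 24.6 and 22.3 TPM in smad1-KD. Every library at 75% epiboly was above every library at 1 dpf, and groups of one stage overlapped. How many of all genes separated the stages in every library was not counted. Within single controls, 13.7% of all genes in control and 18.5% in control-MO were lower at 1 dpf without overlap. Among the 4 igf2bp genes, igf2bp3 made 47.2% to 77.8% of the summed level at 75% epiboly and 25.3% to 50.3% at 1 dpf. The paralog igf2bp1 averaged 38.8 ± 12.6 TPM in control at 75% epiboly and 13.5 ± 5.97 TPM at 1 dpf (SD, n = 3), whereas igf2bp2b averaged 2.35 ± 2.20 and 20.4 ± 8.57 TPM (SD, n = 3).

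The let-7 inhibitor lin28a measured 126, 79.6 and 148 TPM in control, 108, 48.3 and 125 TPM in smad1-cKO, 141 and 124 TPM in control-MO, and 68.6 and 127 TPM in smad1-KD at 75% epiboly. These groups overlapped, with the second smad1-cKO library lowest. The 1 dpf levels were 41.1, 35.6 and 36.8 TPM in control, 63.9, 54.5 and 47.4 TPM in smad1-cKO, 55.7 and 90.3 TPM in control-MO, and 221 and 145 TPM in smad1-KD. At that stage each smad1-cKO library was above each control library, and each smad1-KD library was above each control-MO library. Of all genes, 5.66% were higher without overlap in the first comparison and 5.57% in the second. How many were so in both was not counted. In the order of the 8 group means smad1-KD at 1 dpf stood first (183 ± 53.9 TPM, SD, n = 2) and control at 1 dpf last (37.8 ± 2.89 TPM, SD, n = 3), and both were clear of their neighbours. The paralog lin28b averaged 6.76 ± 3.85 TPM in control and 7.55 ± 2.50 TPM in smad1-cKO at 1 dpf (SD, n = 3), and 32.1 ± 15.4 TPM in control-MO and 28.6 ± 13.3 TPM in smad1-KD (SD, n = 2). The share of lin28a in the pair at 1 dpf was 67.7% to 72.4% in control-MO and 85.4% to 88.3% in smad1-KD.

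The GU-rich element binder celf1 overlapped between control and smad1-cKO at both stages. At 75% epiboly it measured 75.7, 79.9 and 71.3 TPM in control, 65.2, 85.5 and 79.5 TPM in smad1-cKO, 54.3 and 24.7 TPM in control-MO, and 30.6 and 30.7 TPM in smad1-KD. The 4 morpholino libraries were all under the other 6 of that stage. Its levels at 1 dpf were 69.1, 62.5 and 59.9 TPM in control, 67.2, 67.2 and 70.5 TPM in smad1-cKO, 63.6 and 58.3 TPM in control-MO, and 58.9 and 31.6 TPM in smad1-KD, with the second smad1-KD library lowest. At 75% epiboly celf1 made 85.9% to 98.8% of the summed level of the celf genes. At 1 dpf it made 67.2% to 80.2% in control and smad1-cKO and 36.7% to 63.4% in the morpholino groups, where celf2 averaged 51.1 ± 12.2 TPM in control-MO and 14.7 ± 11.7 TPM in smad1-KD (SD, n = 2). In control at 1 dpf celf2 averaged 9.69 ± 3.54 TPM (SD, n = 3); celf3b, celf4, celf5a and celf5b averaged 3.55, 2.20, 5.07 and 0.128 TPM there.

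The Y-box gene ybx1 was the most abundant of the 7, between percentiles 98.0 and 99.7 of the gene IDs above 0 in a library. At 75% epiboly it measured 1010.4, 1183 and 1386 TPM in control, 1416, 827 and 1127 TPM in smad1-cKO, 1428 and 1324 TPM in control-MO, and 1017 and 1145 TPM in smad1-KD. Levels at 1 dpf were 479, 431 and 483 TPM in control, 554, 651 and 393 TPM in smad1-cKO, 288 and 529 TPM in control-MO, and 244 and 373 TPM in smad1-KD. Every library at 75% epiboly exceeded every library at 1 dpf, and neighbouring groups within a stage overlapped. The share of all genes that separated the stages in this way was not counted.

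**Figure D3:**
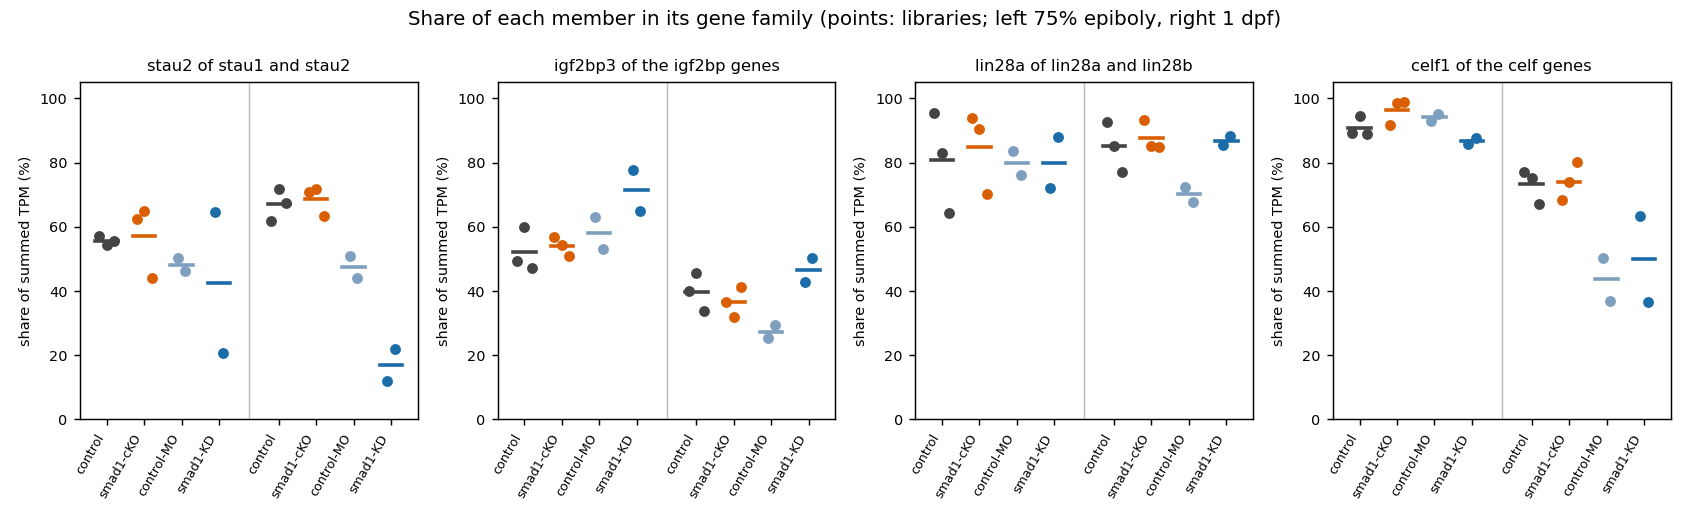
Share (%) of each gene in the summed TPM of its family, for the Staufen, Igf2bp, Lin28 and Celf families; points are libraries and bars group means, with 75% epiboly left of the line and 1 dpf right of it. The stau2 share stands at 12.0% and 21.9% in smad1-KD at 1 dpf, under the other 8 libraries of the stage.

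Loss of smad1 in the germ line was compared with limma on log2(TPM + 1), with Benjamini-Hochberg adjustment over all genes and a threshold of 0.05. On this scale the differences of low genes are understated. At 75% epiboly 0 of the 7 genes were called in smad1-cKO, where 0% of the 13006 genes tested were called (1.81% of all genes and 0 of the 7 had an unadjusted p under 0.05). The 7 differences, smad1-cKO minus control, ran from -0.39 (SE 0.43) for lin28a to 0.09 (SE 0.40) for igf2bp3, and the libraries of both groups overlapped for each gene, as against 5.21% of all genes without overlap. Each of the 7 differences changed sign when one of the libraries was left out; that of lin28a ran from -0.65 to 0.03 (0.03 without smad1-cKO replicate 2) and that of igf2bp3 from -0.10 to 0.22. Within the same-numbered pairs lin28a was lower in smad1-cKO in 3 of 3 at this stage (SE 0.26 with the block), and it was not called with the block. How many of all genes kept a single direction in 3 of 3 pairs was not counted. At 1 dpf 0 of the 7 were called, against 0.00569% of 17573 genes (0.0797%, and 0 of the 7, with the replicate number as a block), and 1 of the 7 had an unadjusted p under 0.05 (6.38% of all genes). Groups did not overlap for lin28a alone, with smad1-cKO higher by 0.53 (SE 0.19) or 1.46-fold by the means. Without overlap, any pairing of these libraries gives lin28a higher in smad1-cKO in 3 of 3 pairs. Leaving out single libraries kept the lin28a difference between 0.42 and 0.63. Of all genes, 11.4% did not overlap and 5.66% did so in the higher direction. For stau1, stau2, pum2, igf2bp3, celf1 and ybx1 the differences lay between -0.18 and 0.17.

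At 75% epiboly the 11 germ cell markers summed to 16970, 22337 and 4287 TPM in control replicates 1 to 3 and to 11378, 33612 and 4985 TPM in smad1-cKO. Their part in the lin28a difference at that stage was not tested. Markers of other cell types varied among the control and smad1-cKO libraries at 1 dpf, and the ranges of both groups overlapped for each list given here. At 1 dpf the 11 skin markers summed to 292 to 3214 TPM in control and 265 to 5378 TPM in smad1-cKO, the 9 blood markers to 1.53 to 6.51 and 4.64 to 144 TPM, and the 10 gene IDs of the yolk, endoderm and liver markers to 5.86 to 15.4 and 2.87 to 141 TPM. The 9 muscle markers summed to 25.7 to 69.5 TPM in control and 43.9 to 368 TPM in smad1-cKO. In the third smad1-cKO library none of these 4 sums was above the highest control. In that library lin28a measured 47.4 TPM, against 63.9 and 54.5 TPM in the other smad1-cKO libraries. The 9 neural markers summed to 29.3 to 166 TPM in control and 58.4 to 229 TPM in smad1-cKO at 1 dpf. The 5 notochord and axial mesoderm markers summed to 13.5 to 14.7 TPM in control and 12.4 to 21.8 TPM in smad1-cKO. The part of any of these markers in the lin28a difference was not tested.

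In the knockdown at 75% epiboly, 0 of the 7 genes were called, as were 0% of 12968 genes (at an unadjusted p under 0.05, 1.26% of all genes and 0 of the 7). All 7 differences, smad1-KD minus control-MO, were negative, from -0.61 (SE 0.75) for stau2 to -0.02 (SE 0.57) for igf2bp3, and that of igf2bp3 was 0.07 with quantile normalization and 0.04 with median-ratio scaling. The sign rested on single libraries for 4 of them: without smad1-KD replicate 2 stau2 stood at 0.39 and igf2bp3 at 0.59, without smad1-KD replicate 1 stau1 at 0.11, and without control-MO replicate 1 celf1 at 0.30 and igf2bp3 at 0.10. Groups did not overlap for pum2 (-0.42, SE 0.70) and ybx1 (-0.35, SE 0.32), both lower in smad1-KD; 22.3% of all genes did not overlap, 14.9% in the lower direction. At 1 dpf 0 of the 7 were called, against 0% of 17141 genes, with 2 of the 7 and 9.9% of all genes at an unadjusted p under 0.05. The groups did not overlap for stau2 and lin28a, nor for 40.3% of all genes.

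The stau2 difference at 1 dpf was -2.82 (SE 0.50), with the mean of control-MO 7.45-fold that of smad1-KD, and it stood at percentile 0.449 of the differences of all genes. The lin28a difference was 1.32 (SE 0.50), or 2.51-fold by the means, at percentile 98.8. In this comparison the median of all genes was itself -0.38, and it went to 0.01 with quantile normalization and 0.02 with median-ratio scaling. Relative to that median the differences were -2.44 for stau2 and 1.70 for lin28a. Libraries did not overlap and were lower for 34.7% of all genes, and higher for 5.57%. Leaving out single libraries gave -2.92 to -2.72 for stau2 and 0.98 to 1.67 for lin28a. When genes under a mean of 5 TPM were left out, limma called stau2 lower, 1 of 43 genes called (0.411% of 10457 genes). With the replicate number as a block limma also called stau2 lower, but that setting called many more of all genes than 43. The count over all genes is given in the last section. The remaining 5 genes overlapped, with differences of -0.68 for stau1, -0.03 for pum2, 0.18 for igf2bp3, -0.49 for celf1 and -0.37 for ybx1; with median-ratio scaling pum2 stood at 0.35 and ybx1 at 0.09.

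Some cell type markers also differed in the same comparison. Beside the blood markers given above, the 9 muscle markers summed to 610 to 765 TPM in control-MO and 39.2 to 108 TPM in smad1-KD at 1 dpf. The 5 notochord and axial mesoderm markers summed to 33.1 to 58.7 and 4.66 to 7.71 TPM. The 11 germ cell markers overlapped and differed between replicates 1 and 2, at 5228 and 1521 TPM in control-MO and 4800 and 1047 TPM in smad1-KD. At least 8 of the 9 muscle markers were above 0 in each of these libraries. The part of all these markers in the stau2 and lin28a differences was not tested. In the knockdown at 75% epiboly the yolk, endoderm and liver sum was 870 to 2795 TPM in control-MO and 384 to 409 TPM in smad1-KD. The notochord and axial mesoderm sum was 212 to 226 and 293 to 308 TPM there, and the muscle sum 2.04 to 2.23 and 2.86 to 3.91 TPM. The other lists overlapped at that stage, and the part of markers there was not tested.

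**Figure D4:**
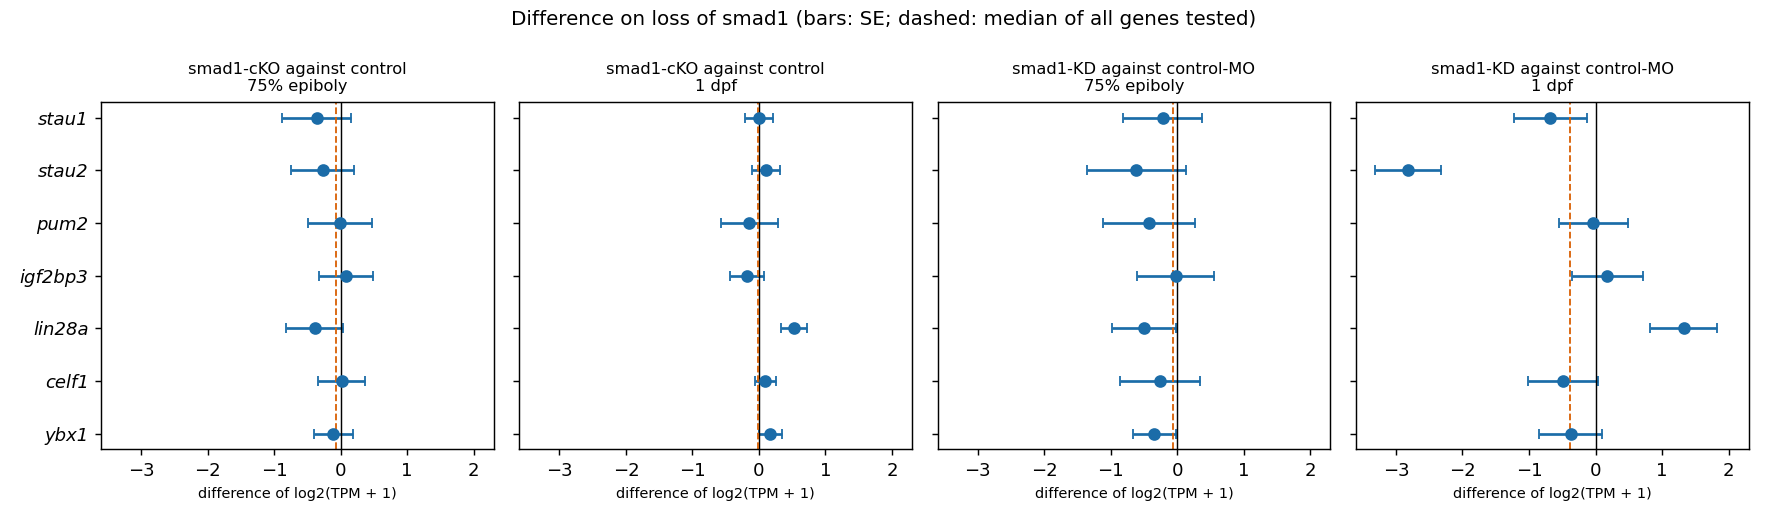
Difference of log2(TPM + 1) of the 7 genes in the 4 comparisons of smad1 loss with its control; points are differences, bars the SE, the solid line 0 and the dashed line the median of all genes tested. In the knockdown at 1 dpf stau2 (-2.82) and lin28a (1.32) stand away from that median of -0.38.

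The 2 stages were compared in each kind of control. Stage coincides with the deposited table, so the stage and anything else that differs between tables cannot be told apart, and the median of all genes shifted by 0.99 in control and 0.86 in control-MO. With quantile normalization that shift was 0.04 and -0.01, and with median-ratio scaling 0.46 and 0.37, so differences are also given relative to it. In control, 4 of the 7 genes were called, against 53.9% of 16536 genes; 1 was higher (42.8% of all genes) and 3 lower (11.1%). In control-MO, 4 of the 7 were called, against 40.7% of 16567 genes, 2 higher (33.4%) and 2 lower (7.25%). The control calls were 7085 higher and 1828 lower, but 3905 and 3956 with quantile normalization and 5412 and 2786 with median-ratio scaling. The control-MO calls were 5534 and 1201, but 2597 and 3050, and 3849 and 2198.

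Of the Staufen genes, stau2 was higher at 1 dpf than at 75% epiboly in control by 1.04 (SE 0.38), which is 0.06 relative to the median of all genes, and in control-MO by 1.98 (SE 0.23), or 1.12 relative to it. The stau1 difference was 0.35 (SE 0.39) in control, where the libraries overlapped and quantile normalization turned it to -0.29 and median-ratio scaling to -0.20. In control-MO it was 2.02 (SE 0.24), with both 1 dpf libraries above both at 75% epiboly. With quantile normalization the stau2 difference in control was 0.39 and with median-ratio scaling 0.48, and it was then not called. The call was also lost without the filter, without the intensity trend, with a pseudocount of 0.1, without mitochondrial features, and without any 1 dpf library or replicate 1 or 3 at 75% epiboly. In control-MO the blood markers summed to 5.47 to 25.3 TPM at 75% epiboly and 7723 to 24774 TPM at 1 dpf, and their part in the stage differences there was not tested.

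The other genes, celf1 aside, were lower at 1 dpf in both controls with no overlap of libraries, as were 13.7% of all genes in control and 18.5% in control-MO; 48.3% and 58% were higher with no overlap. In control ybx1 differed by -1.35 (SE 0.17) and in control-MO by -1.81 (SE 0.34), the mean level at 75% epiboly being 2.57-fold and 3.36-fold that at 1 dpf. The lin28a differences were -1.57 (SE 0.31) and -0.89 (SE 0.31). For pum2 they were -1.26 (SE 0.40) and -1.05 (SE 0.32), and for igf2bp3 -0.77 (SE 0.31) and -1.30 (SE 0.35). Relative to the median of all genes these 4 genes stood between -2.56 and -1.75 in control and between -2.67 and -1.75 in control-MO. The calls among them were pum2, lin28a and ybx1 in control and igf2bp3 and ybx1 in control-MO. The pum2 call was lost when any control library but replicate 3 at 75% epiboly was left out, and all calls of the 7 genes in control-MO were lost without either 1 dpf library. Both scalings also called igf2bp3 in control and pum2 and lin28a in control-MO. The celf1 difference was -0.24 (SE 0.25) in control and 0.71 (SE 0.42) in control-MO, neither of them called, though both scalings called celf1 lower in control.

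**Figure D5:**
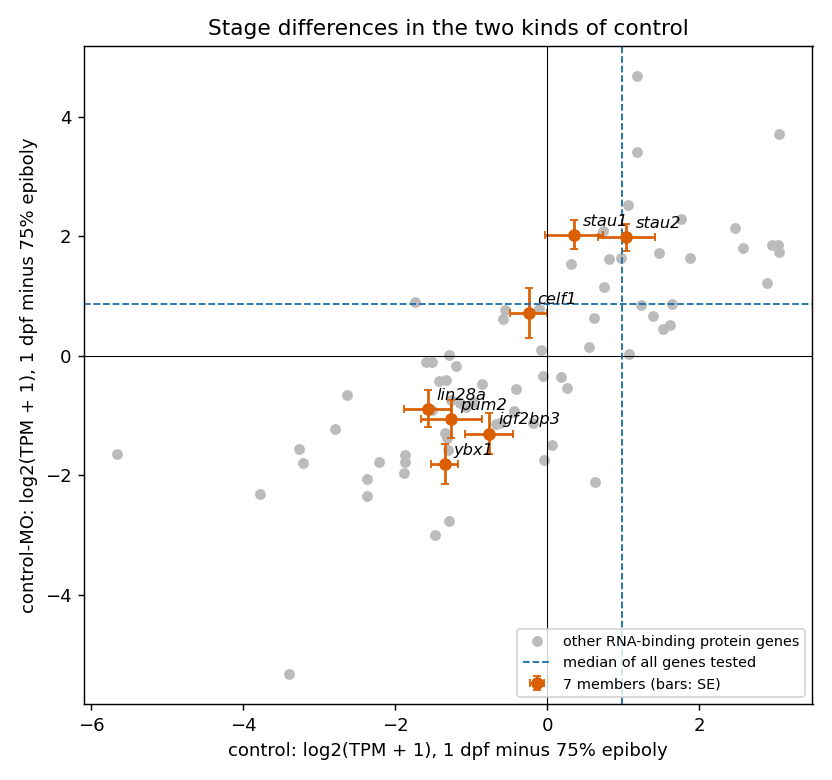
Difference of log2(TPM + 1), 1 dpf minus 75% epiboly, in control (x axis) and control-MO (y axis); orange points with SE bars are the 7 genes, grey points other genes for RNA-binding regulators, and dashed lines the medians of all genes tested (0.99 and 0.86). The lin28a, pum2, igf2bp3, ybx1 and celf1 points lie under both medians.

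A companion list of 79 other genes for RNA-binding regulators (paralogs of the 7 genes, granule and repression factors, polyadenylation and poly(A)-binding factors, binders of AU-rich or GU-rich elements, and localization factors) put these values in context, with 77 found in the tables. In control 26 of 73 tested genes fell and 16 rose between the stages by limma at an adjusted p of 0.05, against 11.1% and 42.8% of all genes; with quantile normalization 37 fell and 8 rose, and with median-ratio scaling 35 fell and 10 rose. Their median difference was -0.44, against 0.99 over all genes. In control-MO 25 of 75 fell and 18 rose, against 7.25% and 33.4% of all genes, with 34 and 8 under quantile normalization and 34 and 13 under median-ratio scaling, and their median was -0.34. These shares of all genes are those without scaling. Under both scalings more of all genes fell and fewer rose, by the counts given above for the stage comparison. The listed genes counted under the scalings therefore cannot be set against these shares. The genes that fell in both numbered 17, which is 65.4% of the control list and 68% of the control-MO list, and 10 rose in both, 62.5% and 55.6% of each list.

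Of the granule and repression factors, 9 of 21 fell and 1 rose in control, where 11.1% of all genes fell and 42.8% rose. In control-MO 7 of the 21 fell and 0 rose, against 7.25% and 33.4% of all genes. With quantile normalization 14 fell in control and 11 in control-MO, with median-ratio scaling 13 and 11, and 0 rose under either scaling. The shares of all genes given here are those without scaling, and under both scalings more of all genes fell and fewer rose. The counts under the scalings therefore cannot be set against these shares. The La-related protein gene larp1 had the smallest p of all listed genes in control, from 89.7 ± 7.48 TPM at 75% epiboly to 0.825 ± 0.411 TPM at 1 dpf (limma adjusted p = 6.0e-05, n = 3). Next among the listed genes that fell there was khsrp, whose product promotes decay of AU-rich messages, from 340.3 ± 64.4 to 36.5 ± 11.3 TPM (limma adjusted p = 0.00021). The cold-inducible RNA-binding gene cirbpb fell by 2.22 (SE 0.23; limma adjusted p = 0.00028). In control-MO the genes with the smallest p among those that fell were pabpn1l, a poly(A)-binding gene (217 to 27.0 TPM), elavl1a, a HuR family gene that stabilizes AU-rich messages (103 to 23.7 TPM), hnrnpabb (1378 to 410.0 TPM) and cirbpb (812 to 236 TPM), with limma adjusted p between 0.0081 and 0.0089. Of these 4, hnrnpabb was not called in control, at 1909 and 1839.7 TPM (limma adjusted p = 0.86), although median-ratio scaling called it lower.

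Among the genes that rose in control were auh, an AU-binding gene (22.9 to 184 TPM), pabpc1b, a cytoplasmic poly(A)-binding gene (0.842 to 13.3 TPM), zfp36l1b, whose family promotes decay of AU-rich messages (2.85 to 28.4 TPM), and cpeb1a, a cytoplasmic polyadenylation factor gene (0.0499 to 8.82 TPM), with limma adjusted p between 0.00016 and 0.0014. In control-MO the genes that rose with the smallest p were the celf1 paralogs celf2 (1.33 to 51.1 TPM), celf3a (0.376 to 14.0 TPM) and celf4 (listed at 0, then 4.76 TPM), and cpeb3 (0.166 to 6.91 TPM), with limma adjusted p between 0.0098 and 0.0099. In control celf2 rose too (limma adjusted p = 0.0499, 3.77 to 9.69 TPM), a call that both scalings removed, and celf3a and celf4 did not pass (limma adjusted p = 0.069 and 0.19).

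On loss of smad1, 0 of the listed genes were called in any of the 4 comparisons (64, 73, 66 and 75 tested), with 0, 0, 2 and 10 at an unadjusted p under 0.05. Of all genes, 1.81%, 6.38%, 1.26% and 9.9% had such a p. The smallest p in smad1-cKO at 75% epiboly belonged to zfp36l1a (35.2 to 62.6 TPM, control to smad1-cKO), rbpms2b (25.2 to 12.2 TPM) and lsm14b (48.5 to 29.6 TPM), none of them called. At 1 dpf they were celf3a (2.79 to 5.71 TPM), auh (184 to 146 TPM) and pabpn1l (81.2 to 102 TPM), not called. In smad1-KD at 75% epiboly they were rbpms2a (4.64 to 18.9 TPM), igf2bp2b (5.51 to 0.491 TPM) and cirbpb (812 to 480.3 TPM), not called. At 1 dpf they were cpeb1b (14.4 to 3.41 TPM), igf2bp2b (13.2 to 3.46 TPM) and auh (38.2 to 10.8 TPM), not called, with limma adjusted p of 0.25, 0.26 and 0.27. In that comparison 25 of the 75 listed genes were lower and 4 higher without overlap of libraries, against 34.7% and 5.57% of all genes.

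The 7 genes did not share one profile. Likeness was measured as the root mean square difference of log2(TPM + 1) over the 20 libraries, each gene centred on its own mean. The closest of the 21 pairs was pum2 with igf2bp3 (0.43), followed by igf2bp3 with ybx1 (0.48), and the farthest was stau2 with lin28a (1.71); stau1 and stau2 were 1.09 apart. Among 8565 named genes, those most like stau2 were gpm6bb (0.40), sumo2a and mpped2a, and those most like lin28a were bod1l1 (0.38), leng8 and letm1. For ybx1 they were cbx3a (0.26), pcna and nucks1a, for igf2bp3 rpa3 (0.20) and baz2a, and for pum2 hira (0.32), stx5a and anp32a. For celf1 they were med12 (0.26), ptbp2b and ppp5c, and for stau1 the ribosomal protein genes rps8a (0.33), rpl30 and rps25. The median over all compared genes lay between 0.99 and 1.42, and all 20 libraries, whose read depth is unknown, enter each value.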

How the data were processed

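RNA of sorted PGCs was amplified as full-length complementary DNA and made into libraries by transposase, per the labels' protocols. Per the submitters' processing notes, the builds were GRCz11 and danRer11 and the tools StringTie 2.2.1 and STAR 2.7.10b; the annotation is not given in the sources used here. The authors deposited gene-level TPM in 4 tables; every column sums to between 999551 and 999932. TPM keep no depth, so the precision behind a single value is unknown. Amplicon tables of 4 samples were not used, and 896 unnamed features were kept in the fits.

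Values were analysed as log2(TPM + 1) with limma 3.58.1 (intensity trend) in R 4.3.3, on genes with a mean of at least 1 TPM over the libraries of a comparison, with Benjamini-Hochberg adjustment over all genes and a threshold of 0.05. Each comparison used only its own groups. Figures were drawn with matplotlib 3.10.9. The 7 genes, the companion list, the marker lists and the tests were chosen with earlier results of these data known. Genes were named by rule: the 7 genes, their paralogs, smad1, up to 4 listed genes per direction by smallest p (3 where none was called), and the 3 genes most like each member among named genes with a mean of at least 5 TPM; some genes this rule names are not reported here.

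Replicate numbers come from the labels, which do not say what they mark. They were taken to pair libraries only where the correlation given next held in at least 3 pairs. The knockdown, with 2 libraries per group, could not meet this. The main fits used no replicate block. In the knockout experiment the deviations of same-numbered libraries from their group means correlated above 0.1 in all 3 pairs at both stages (0.18, 0.20 and 0.42; 0.27, 0.10 and 0.27), so the numbers were taken to pair those libraries. The SE and calls given for smad1-cKO against control leave this pairing out, except where the block is named. For lin28a the SE was 0.43 without and 0.26 with the block at 75% epiboly, and 0.19 and 0.17 at 1 dpf. Results were recomputed with quantile normalization, median-ratio scaling, removal of 37 mitochondrial features, no intensity trend, a replicate block, a smaller pseudocount (0.1), genes of any level or of at least 5 TPM, and leaving out each library. No sequences are shown.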

Additional observations from a re-analysis of the deposited data

Results flagged for a closer look

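The difference of celf1 between the stages went in opposite directions in the 2 kinds of control. On the log2(TPM + 1) scale, 1 dpf minus 75% epiboly, it was -0.24 in control, where each of the 3 libraries at 1 dpf was under each at 75% epiboly, and 0.71 in control-MO, where both libraries at 1 dpf were above both at 75% epiboly. Of all genes, 13.7% were lower without overlap in control, and 58% were higher without overlap in control-MO. How many of all genes showed both was not counted. The difference between the 2 celf1 values was not tested. Neither celf1 value was called by limma on the deposited scale, and quantile normalization and median-ratio scaling gave -0.91 and -0.80 in control, both called. Relative to the median of all genes the 2 values were -1.23 and -0.15. In control-MO the celf1 difference ran from 0.18 to 0.73 over the alternatives that kept all libraries. Leaving out single libraries there gave 0.16 to 1.27.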

How the results depend on the processing

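Over all alternatives, 546 differences of the 7 genes were recomputed: 515 stayed within the spread of replicates, 31 moved outside it and 0 called ones changed sign. The filters on level, the intensity trend and the replicate block could not change a difference, and their values count among the 515. Between the stages in control, 12 of 14 alternatives stayed within the spread for each of the 7 genes. Counts of calls moved more. With the replicate block, calls over all genes went from 1 to 14 in smad1-cKO at 1 dpf and from 0 to 27 in smad1-KD at 75% epiboly. In smad1-KD at 1 dpf they went from 0 to 866 of 17141 genes tested, with 1 of the 7 genes (stau2, lower) and 6 companion genes then called. The knockdown has fewer than the 3 pairs required, so its numbers were not taken to pair libraries. Its correlation of deviations was 0.08 at 75% epiboly and 0.60 at 1 dpf, the latter above every value in the knockout experiment. The block took pum2 out of the calls between the stages in control (deviation correlations near 0, -0.01 in the pair numbered 3) and changed no further call of the 7 genes. In smad1-KD at 1 dpf, a minimum of 5 TPM gave 43 genes and 1 of the 7, and no intensity trend gave 10 genes. Between the stages in control-MO, a minimum of 5 TPM gave 4263 calls in place of 6735, from fewer genes tested. Leaving out single libraries gave 1 to 46 calls in smad1-cKO at 1 dpf (46 without smad1-cKO replicate 3, 2 without control replicate 1) and 0 to 41 in smad1-KD at 1 dpf (41 without control-MO replicate 1, 5 without replicate 2). Of the 7 genes, 2 to 4 were called between the stages in control (2 without any one 1 dpf library or without replicate 1 at 75% epiboly). With all libraries 53.9% of all genes were called there, and the shares of all genes in these refits are not given here. In control-MO, leaving out a 1 dpf library gave 1473 or 1202 calls over all genes (highest over the 4 libraries 7603), 0 of the 7 genes and 4 or 2 companion genes (highest 39, against 43 with all libraries); the lone library left was assumed to vary like the other group. For results that moved with no value named, the cause was not tested.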
